A study of Homo sapiens with 12 samples.

Results

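The comparison described here set untreated SKOV3/DDP cells against untreated SKOV3 cells, with 3 RNA sequencing libraries of each line, so that it used 6 of the 12 samples of the series. The 6 were taken by cell line and by the absence of paeonol (PAE, a plant phenol) from their labels. SKOV3 is an epithelial line of human ovarian cancer that the labels call sensitive to cisplatin, and SKOV3/DDP is labelled resistant to that drug. According to the study's methods SKOV3/DDP was developed from SKOV3, and both lines came from one culture collection and were typed by short tandem repeats. The methods and labels give no passage number and no cisplatin dose used to keep resistance, and the labels do not say that replicates were separate cultures. The methods state in general that experiments were repeated independently, without naming the sequenced samples, so that p-values measure the spread between these samples, which may be technical. The question was which genes differ between a line that withstands cisplatin and the line it is said to come from. The labels give no dose or time for PAE and name no other agent for any group. The column names of the PAE-treated tables carry a number that differs between the lines and that the labels do not explain, so that the lines may have received different doses, and every comparison with PAE has this limit. The other 6 samples, 3 libraries of each line with PAE, share no library with the 6 described here. The same difference between the lines was computed in them as a second measurement of line differences, with PAE present in both lines. These are bulk libraries, so that a lower level through fewer cells of a kind and through less RNA per cell cannot be told apart.

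Cisplatin enters cells partly through copper transporters, is bound inside by thiols such as glutathione and metallothioneins, and is pumped out by copper ATPases and ATP-binding cassette (ABC) transporters. What reaches the nucleus binds purine bases of DNA and makes intrastrand and interstrand crosslinks. Nucleotide excision repair removes the former, the Fanconi anemia proteins together with homologous recombination resolve the latter, and mismatch repair and p53 pass the damage on to cell cycle arrest or apoptosis. Genes of each of these steps have been tied to resistance in ovarian cancer.

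The 6 libraries held between 15031362 and 18263479 counts. Counts fell on 46350 named genes, of which 27840 had a count in any of the 6 libraries. An untreated SKOV3 library had a count for 17951 to 18240 genes, against 21720 to 22709 in a SKOV3/DDP library. Mitochondrial genes took 1.29% to 1.96% of counts in SKOV3 and 8.66% to 11.2% in SKOV3/DDP. Libraries of the lines also differed by base composition (the plot of the fitted trend against GC content). For genes with a GC content under 38%, the median fitted trend was −1.39, −1.80 and −1.55 on the log2 scale in SKOV3, below the mean of the libraries, whereas the SKOV3/DDP libraries had 1.60, 1.60 and 1.55. Above 62% GC the signs were exchanged, with 1.16, 1.15 and 1.12 for SKOV3 against −1.17, −1.14 and −1.12. In the PAE-treated libraries the same bins stayed between −0.28 and 0.40. The trend has the same split as the lines, and its origin was not tested. A spline over GC content and one over gene length were therefore fitted to each library and removed before the lines were compared. This lowered the Spearman correlation of the log2 fold change with GC content across 14410 genes, which are not independent replicates, from −0.62 to −0.03.

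**Figure D1:**
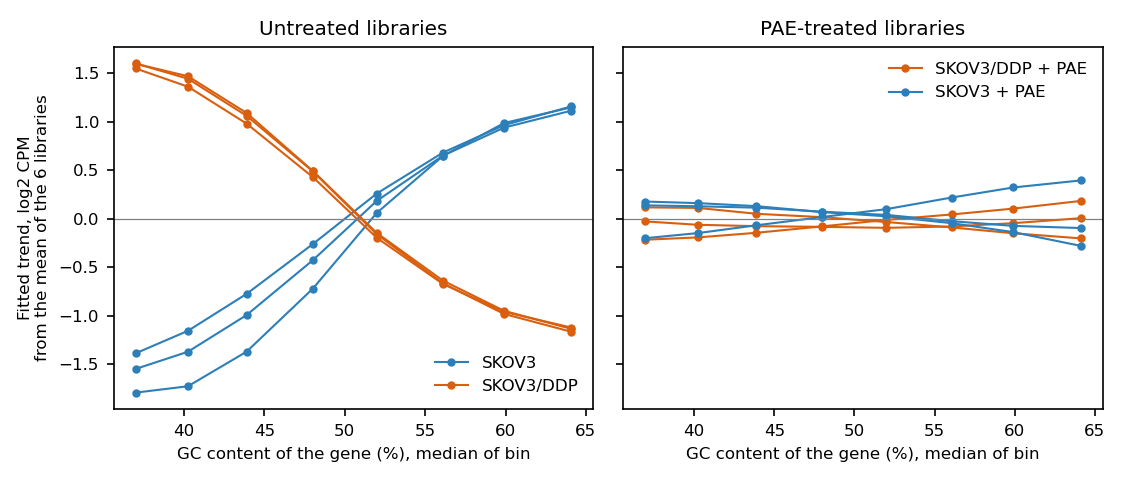
Trend of each library on GC content, as fitted before the comparison: the x axis is the median GC content of 8 bins of genes in percent, the y axis is the library's deviation in log2 CPM from the mean of the 6 libraries, and each line is 1 library. The 3 untreated SKOV3 libraries run from −1.39 or less at low GC content to 1.12 or more at high GC content and SKOV3/DDP the other way, while PAE-treated libraries stay between −0.28 and 0.40 in these bins.

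Removing the trend did not remove all of the spread it goes with. The subunits of the proteasome, the particle that degrades ubiquitinated proteins, are built in fixed ratio, and the SD of their 31 log2 fold changes was 2.17 before and 1.25 after the trend was removed, against 0.68 in the PAE-treated lines. For this reason counts over gene lists are mostly given with those of the PAE-treated lines beside them. SKOV3/DDP replicate 2 also stood apart from the other 2 of its group, since 101 of 8504 genes of at least 10 CPM differed from their mean by more than 4-fold, compared with 51 and 44 for replicates 1 and 3 and 19 to 31 for the SKOV3 libraries. Values without it are given for the named genes whose call it decides.

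CPM below are read counts scaled to a common library size after the trend was removed, log2 fold changes are SKOV3/DDP over SKOV3 with their standard error (SE), and p-values are Benjamini-Hochberg adjusted over all genes tested. Genes with 0 counts in a line are given in counts, and their fold is a lower bound computed against 3 counts over that line's 3 libraries, which equal 0.0565 CPM of library totals in SKOV3 and 0.0636 in SKOV3/DDP. Such bounds, and intervals for groups with 1 to 3 counts, cover counting error only.

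The labelled origin was checked against marker genes. Both lines carried RNA of simple epithelium, with the 6 listed markers summing to between 5431 and 5689 CPM of library totals in SKOV3 and between 11665 and 12491 in SKOV3/DDP. Of 13 markers of ovarian and Mullerian epithelium, the tissue from which most ovarian carcinomas are thought to arise, 4 reached 1 CPM in SKOV3 and 4 in SKOV3/DDP. WT1, ESR1, PGR, SOX17 and EMX2 had 0 counts in every SKOV3 library, and WFDC2, SOX17, EMX2 and AMHR2 in every SKOV3/DDP library. Of the 6 tested, 2 were higher and 3 lower in SKOV3/DDP. PAX8, the lineage factor of this tissue, had 383, 273 and 376 counts in SKOV3 and 59, 54 and 91 in SKOV3/DDP, whereas MSLN (mesothelin) had 1607, 1814 and 1761 against 5835, 6837 and 6485 and FOLR1, a folate receptor, 4, 0 and 0 against 611, 653 and 516. SKOV3 is known for amplified ERBB2, the receptor tyrosine kinase HER2. Here ERBB2 stood at 147, 158 and 168 CPM in SKOV3 and 158, 102 and 129 CPM in SKOV3/DDP, and per kilobase it ranked between 2120 and 2339 among 14410 genes in SKOV3 and between 2017 and 2856 in SKOV3/DDP, so that the expected abundance was not seen in either line. The difference between the lines was not called (−0.28 ± 0.18, adjusted p = 0.21), and its sign depended on the form of the trend. MIEN1 overlaps ERBB2. Of 5 tested neighbours of ERBB2 on chromosome 17, STARD3 was lower (−0.53) and 0 were higher. Markers of fibroblasts, endothelium and lung epithelium each summed to under 13 CPM in every library. The leukocyte list summed to between 73.0 and 117 CPM through CD68 and CD14, with PTPRC at 0 counts in all 6 libraries, and the hepatocyte list reached 25.3 to 30.3 CPM in SKOV3/DDP through SERPINA1.

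Some genes were read in 1 line and not at all in the other. Among protein-coding genes, 106 had 0 counts in all 3 SKOV3 libraries and a mean of at least 10 CPM of library totals in SKOV3/DDP, and 85 showed the reverse. In the PAE-treated libraries, 102 of the 106 were under 1 CPM in SKOV3, and 85 of the 85 were under 1 CPM in SKOV3/DDP. In the line where they were seen, 78 of the 106 and 58 of the 85 again reached 10 CPM with PAE. The 106 had a median GC content of 45.8% and the 85 one of 56.5%, against 49.8% for 7561 protein-coding genes of at least 10 CPM, so that the direction of both sets runs with the trend of the SKOV3 libraries. Of the 106, 34 lay above 50% GC, where the SKOV3 libraries had the higher yield.

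Promoters of these genes are shown because CpG content sets many broadly used genes apart from genes of restricted use. RefSeq sequences (GRCh38.p14, 250 bases before to 50 after the start of transcription, the first listed for each gene) were found for 84 of the 106 and 60 of the 85. The ratio of observed to expected CpG had a median of 0.693 for the former and 0.812 for the latter, compared with 0.860 for the 7561 genes. It reached 0.6 in 59.5% of the former, 80.0% of the latter and 87.7% of the 7561. Below are 2 genes with 0 counts in SKOV3 and 2 with 0 counts in SKOV3/DDP, read 5′ to 3′, with each CG pair in capitals. STK11 (chr19:1205528-1205827, plus strand) has a ratio of 1.06, GSTM4 (chr1:109655849-109656148, plus strand) 0.724, BASP1 (chr5:17216573-17216872, plus strand) 0.834 and SPINK6 (chr5:148202528-148202827, plus strand) 0.0877, so that genes read in 1 line only had both dense and nearly CpG-free starts.
STK11: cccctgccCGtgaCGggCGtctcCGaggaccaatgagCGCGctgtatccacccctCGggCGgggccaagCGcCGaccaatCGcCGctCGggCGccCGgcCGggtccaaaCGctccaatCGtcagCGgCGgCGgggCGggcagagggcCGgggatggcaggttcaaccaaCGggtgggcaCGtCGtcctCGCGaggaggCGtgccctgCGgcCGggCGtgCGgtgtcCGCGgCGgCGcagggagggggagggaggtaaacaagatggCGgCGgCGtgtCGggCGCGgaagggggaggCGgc
GSTM4: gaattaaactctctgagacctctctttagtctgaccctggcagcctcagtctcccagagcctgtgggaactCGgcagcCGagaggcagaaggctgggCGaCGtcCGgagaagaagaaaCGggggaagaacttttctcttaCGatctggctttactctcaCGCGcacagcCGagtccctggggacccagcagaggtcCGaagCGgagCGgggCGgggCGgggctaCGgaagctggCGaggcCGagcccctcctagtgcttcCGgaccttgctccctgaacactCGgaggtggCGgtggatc
BASP1: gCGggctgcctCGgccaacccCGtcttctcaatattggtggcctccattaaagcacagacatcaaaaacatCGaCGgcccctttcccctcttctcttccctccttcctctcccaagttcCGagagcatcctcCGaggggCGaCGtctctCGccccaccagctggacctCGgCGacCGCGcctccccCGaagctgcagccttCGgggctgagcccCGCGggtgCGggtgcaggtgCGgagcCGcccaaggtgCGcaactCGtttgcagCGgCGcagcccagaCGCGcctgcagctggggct
SPINK6: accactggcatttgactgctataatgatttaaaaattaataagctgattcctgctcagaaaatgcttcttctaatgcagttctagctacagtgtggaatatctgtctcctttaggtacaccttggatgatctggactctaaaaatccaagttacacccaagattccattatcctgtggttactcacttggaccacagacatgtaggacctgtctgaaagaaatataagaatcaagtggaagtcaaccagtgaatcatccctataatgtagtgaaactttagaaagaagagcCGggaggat

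Of 14410 genes tested, 9754 (67.7%) differed between the untreated lines, 5133 (35.6%) higher and 4621 (32.1%) lower in SKOV3/DDP. Their median log2 fold change was 0.11, and it was 1.09 when the trend's shape was removed but library size set the level, which called 8563 genes higher and 2313 lower. Directions are therefore relative to the median gene. Without removal of the trend 12972 of 15323 genes (84.7%) were called. Of the 9754, 7116 (49.4% of genes tested) were called with the same sign in that fit and 1292 with the opposite one. Of 9318 called genes that were also tested in the PAE-treated lines, 77.6% had the same sign there. In those lines 9042 of 14857 genes (60.9%) were called, and 2768 genes (19.2% of 14410) were higher in SKOV3/DDP in both comparisons and 2487 (17.3%) lower in both, while 828 (5.75%) were called in opposite directions. The libraries of the lines did not overlap in 10571 genes (73.4%). The study's own call rule, p under 0.05 without adjustment at a change past 2 log2 units, was met by 4229 genes (29.3%).

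**Figure D2:**
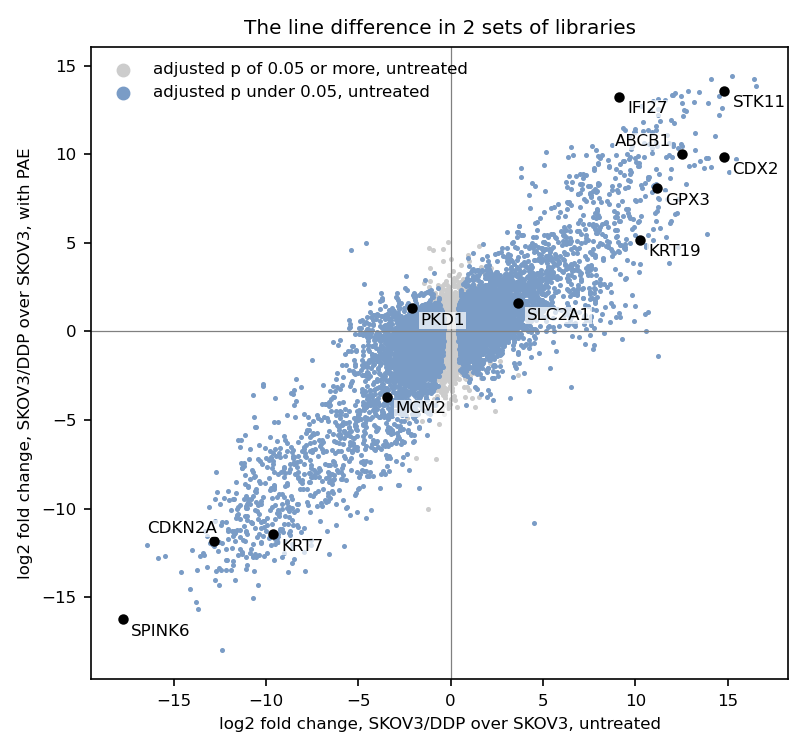
Difference between the lines without (x axis) and with PAE (y axis), both as log2 fold change of SKOV3/DDP over SKOV3 after trend removal, for the 13828 genes tested in both, with blue points for genes called in the untreated lines. Genes read in 1 line only, such as STK11 and SPINK6, lie at the ends of the diagonal, and PKD1 lies in the quadrant of opposite signs.

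The largest differences that held with and without trend removal and in the PAE-treated lines were genes with 0 counts in one line. MT1E (chr16:56625781-56627112, GRCh38), which encodes a metallothionein, had 0, 0 and 0 counts in SKOV3 and 4401, 4882 and 4332 in SKOV3/DDP, at least 5109-fold higher. BMP4, a ligand of bone morphogenetic protein receptors, had 0, 0 and 0 and 10876, 4208 and 11620 counts, at least 10021-fold higher. Both were named by a rule that excludes overlap between the lines. GSTM4, a glutathione transferase, had 3737, 5098 and 3768 counts in SKOV3/DDP, MAGED1, an adaptor of neurotrophin receptor signalling, 5109, 4519 and 4701, and STK11 (chr19:1205778-1228431), the kinase LKB1 that activates AMPK, 1802, 1587 and 1817, each against 0 in every SKOV3 library. STK11 overlaps CBARP, and the strand of counting is not given in the sources used here. The folds were at least 4729, 5377 and 1954. The others of the 10 were MYBPH, CDX2, CDH17, USH1C and EPS8L3, with lower bounds between 1726-fold (EPS8L3) and 6292-fold (CDH17). MYBPH varied most, with 245, 23.6 and 347 CPM in SKOV3/DDP.

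In the other direction SPINK6, a serine protease inhibitor of skin, had 14392, 26563 and 18806 counts in SKOV3 and 0 in every SKOV3/DDP library, at least 17694-fold. NNMT, which methylates nicotinamide, had 9321, 13916 and 11584 counts against 0 and BASP1, a membrane protein of growth cones, 9592, 8597 and 10077 against 0. WFDC2, which encodes the ovarian cancer serum marker HE4, had 3839, 2978 and 3884 counts in SKOV3 and 0, 0 and 0 in SKOV3/DDP, at least 3168-fold. Other markers of that tissue, MSLN and FOLR1, ran the other way, as given above. PARP8, MDFIC, C5orf38, KYNU, RAB32 and IL6 completed the 10, with bounds between 152-fold (KYNU) and 2620.1-fold (C5orf38). One further gene, chosen after its values were seen, was GSTT1, a glutathione transferase whose deletion is a common human polymorphism. It had 0 counts in all SKOV3 libraries with or without PAE and 401, 401 and 420 in SKOV3/DDP, at least 459-fold. No GC content was at hand for it, so it stands outside the test.

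Gene lists on resistance and identity differed in how their members were split (the plot of called members by list). Higher members outnumbered lower ones, among others, for intestinal epithelium genes (8 higher and 0 lower of 9 tested), WNT feedback targets (10 and 2 of 12), p53 targets (16 and 2 of 23) and epithelial junction genes (11 and 2 of 18). Lower members exceeded higher ones by the largest numbers among replication genes (0 higher and 19 lower of 26), homologous recombination and crosslink repair genes (4 and 17 of 32) and glycolysis genes (6 and 13 of 24). These counts, and those of every list below, stand against 35.6% of all genes higher and 32.1% lower. Counts of members called in both comparisons stand against 19.2% of all genes higher in both and 17.3% lower in both. Members called in opposite directions stand against 5.75%. The splits of the excision repair, crosslink repair, replication and purine lists turned or nearly evened out without trend removal, as given with each. Those of the mitosis, survival and cell death lists turned too, as given with each. The larger side also changed, among others, for glutathione genes (10 higher and 12 lower without trend removal), metallothioneins (1 and 3), cholesterol synthesis (10 and 9) and the proteasome (15 and 11).

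**Figure D3:**
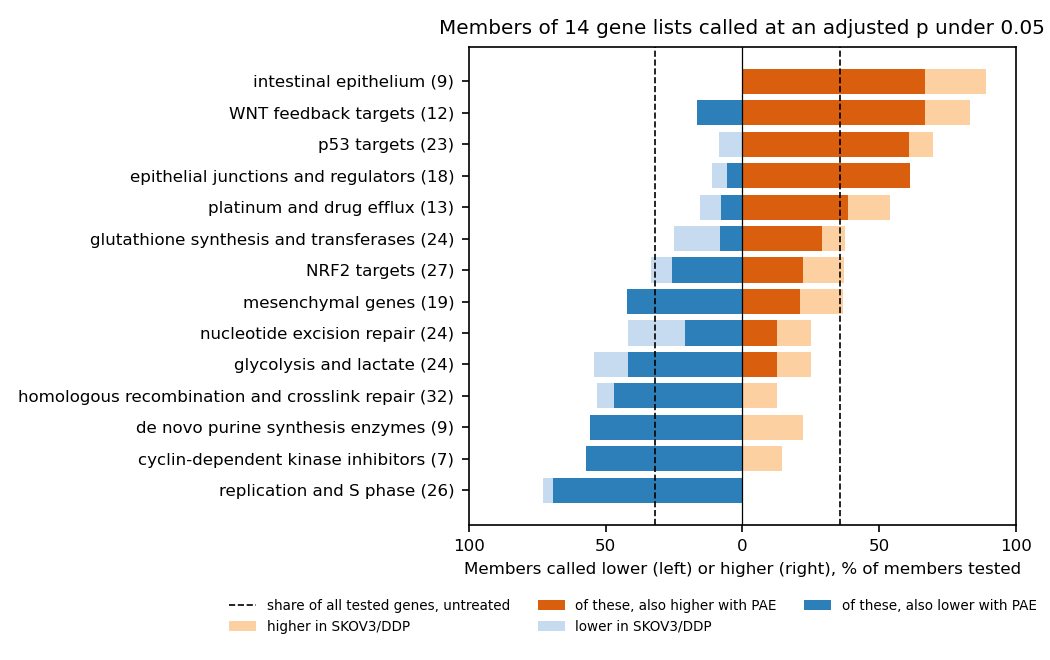
Members of 14 gene lists called lower (left of 0) or higher (right of 0) in untreated SKOV3/DDP, as percent of the members tested, whose number is in brackets; the dark part of each bar is also called in the same direction in the PAE-treated lines, and dashed lines mark the 32.1% of all tested genes called lower and the 35.6% called higher. Intestinal, WNT, p53 and epithelial lists lean to the right and replication genes to the left, with most of their bars dark.

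For platinum uptake and storage, 2 of 9 tested members were higher and 1 lower, smaller shares than the 35.6% and 32.1% of all genes. SLC31A1 (CTR1), the copper transporter through which cisplatin can enter, measured 45.3, 43.9 and 45.7 CPM in SKOV3 and 22.7, 41.9 and 15.5 CPM in SKOV3/DDP and did not pass the test (−0.75 ± 0.33, adjusted p = 0.07), and its sign was the opposite without trend removal (1.28). Without SKOV3/DDP replicate 2, the highest of its group, it was called lower (−1.12, adjusted p = 0.0021). The 3 SKOV3/DDP libraries span nearly 3-fold and the highest is close to SKOV3.

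Of the list on platinum and drug efflux 7 of 13 members were higher and 2 lower, with a median log2 fold change of 0.94, and 5 of the 7 were also higher in the PAE-treated lines. ABCB1 (chr7:87503017-87713295, GRCh38), the P-glycoprotein pump that exports taxanes and doxorubicin but is not known to export cisplatin, had 0, 0 and 0 counts in SKOV3 and 1346, 1744 and 807 in SKOV3/DDP, at least 1462-fold higher. All 3 SKOV3 libraries lack it. ATP7B, the copper ATPase that sequesters and exports platinum, measured 4.03, 3.36 and 2.67 CPM in SKOV3 and 20.8, 15.9 and 18.3 CPM in SKOV3/DDP (2.45 ± 0.25, adjusted p = 4.4e-05), and the lines do not overlap. Its relative ATP7A measured 13.3, 5.37 and 9.51 CPM in SKOV3 and 6.12, 5.53 and 5.27 CPM in SKOV3/DDP, with no difference past the test (−0.76 ± 0.31, adjusted p = 0.058) and a sign that turned without trend removal (2.31). ABCG2, the breast cancer resistance protein, measured 0.906, 0 and 0.339 CPM in SKOV3 and 6.03, 8.88 and 5.92 CPM in SKOV3/DDP (3.89 ± 0.56, adjusted p = 3.4e-04), and ABCC4, an exporter of nucleotides and conjugates, 5.77, 0.67 and 4.41 CPM in SKOV3 and 17.4, 18.5 and 13.5 CPM in SKOV3/DDP (2.11 ± 0.48, adjusted p = 0.0041). Both were below 10 CPM in every SKOV3 library and rest on few counts there. ABCC2 (MRP2), which exports glutathione conjugates of platinum, was at 0.648 ± 0.554 CPM in SKOV3 and 0.837 ± 0.202 in SKOV3/DDP (SD, n = 3), with no call (log2 fold change 0.31). Its counts summed to 14 and 103 over the 3 libraries, and without trend removal it was called higher (2.30, adjusted p = 0.0058). In the PAE-treated lines the log2 fold changes were 1.38 for ATP7B, 1.25 for ABCG2 and 0.93 for ABCC4. All were called, which the naming rule required of ABCC4. ABCC3 and ABCC5 were called in opposite directions in the 2 comparisons.

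**Figure D4:**
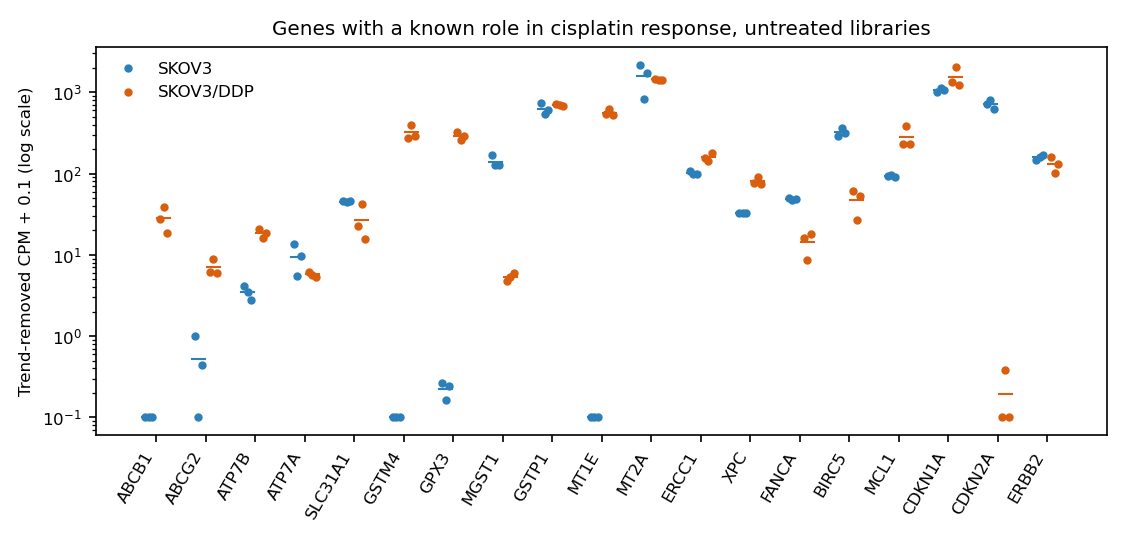
Level of 19 genes from the lists on drug response and resistance in the 6 untreated libraries, as trend-removed CPM plus 0.1 on a log axis. Points are libraries and bars are means of 3. GSTM4, GPX3, MGST1, MT1E, XPC, FANCA and BIRC5 were named for the size of their difference. ABCB1, GSTM4, GPX3 and MT1E separate the lines by more than 100-fold in one direction and CDKN2A in the other, while GSTP1, MT2A and ERBB2 overlap or nearly so.

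Among metallothioneins, small cysteine-rich proteins that bind zinc, copper and platinum, 4 of 10 passed the filter on low counts, and MT1A, MT1H, MT1M and MT3 had 0 counts in all 6 libraries. MT1E was read only in SKOV3/DDP, as given above. MT2A, usually the most abundant of them, measured 2186, 826 and 1725 CPM in SKOV3 and 1451, 1426 and 1428 CPM in SKOV3/DDP and was not called (−0.14 ± 0.31, adjusted p = 0.71). The SKOV3 values of MT2A enclose those of SKOV3/DDP. MT2A is a short gene whose value depended on the trend: without its removal the log2 fold change was −3.62, and in the PAE-treated lines it was −2.43. Metallothionein genes share much of their sequence, and how reads matching several of them were counted is not given in the sources used here.

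Of 24 tested genes of glutathione synthesis and transfer, 9 were higher and 6 lower, close to the shares of all genes, but single members differed widely. GPX3, a secreted glutathione peroxidase, measured 0.162, 0.063 and 0.144 CPM in SKOV3 and 321, 257 and 292 CPM in SKOV3/DDP (11.17 ± 0.31, adjusted p = 4.1e-07). GSTM4 was read only in SKOV3/DDP, and its neighbour GSTM2 had 0, 1 and 0 counts in SKOV3 and 107, 119 and 157 in SKOV3/DDP, for a ratio of 431 (95% counting interval 76.9 to 17075). GSTM genes are close paralogs, so that reads could be split among them. MGST1, a transferase of microsomes, ran the other way, with 167, 128 and 126 CPM in SKOV3 and 4.7, 5.22 and 5.95 CPM in SKOV3/DDP (−4.73 ± 0.22, adjusted p = 1.2e-06). GSTP1, the transferase most often tied to platinum resistance, measured 735, 547 and 599 CPM in SKOV3 and 711, 690.5 and 670.3 CPM in SKOV3/DDP and was not called (0.14 ± 0.16, adjusted p = 0.45). Its log2 fold change was −3.48 without trend removal and −1.30 when only GC content, and not gene length, was used. GCLC, the catalytic subunit of the enzyme that limits glutathione synthesis, measured 11.5, 7.15 and 5.12 CPM in SKOV3 and 19, 117 and 19.4 CPM in SKOV3/DDP (2.70 ± 0.75, adjusted p = 0.011), where replicate 2 of SKOV3/DDP is 6 times the others. Without that library the log2 fold change was 1.40 and was still called. GCLM, the modifier subunit, was not called (−0.27 ± 0.55, adjusted p = 0.68), but was called lower without replicate 2 (−1.31, adjusted p = 5.3e-04). NRF2 targets were split, with 10 higher and 9 lower of 27. AKR1C3, a ketoreductase, measured 30.7, 40.4 and 35.4 CPM in SKOV3 and 2.33, 3.99 and 4.29 CPM in SKOV3/DDP (−3.33 ± 0.29, adjusted p = 2.0e-05). SRXN1, which restores peroxiredoxins, measured 110.0, 683 and 91.2 CPM in SKOV3/DDP, and its log2 fold change was 2.80 with and 1.38 without replicate 2.

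Genes of crosslink repair were more often lower than higher in SKOV3/DDP. Of 32 genes of homologous recombination and crosslink repair, 17 were lower and 4 higher, with a median log2 fold change of −0.74, and 15 of the 17 were also lower in the PAE-treated lines, where the median was −1.11. FANCA, a subunit of the Fanconi anemia core complex, measured 50.3, 47 and 48.7 CPM in SKOV3 and 16.1, 8.59 and 17.9 CPM in SKOV3/DDP (−1.78 ± 0.27, adjusted p = 4.2e-04). FANCG measured 71, 71.8 and 66.9 CPM in SKOV3 and 26.5, 17.6 and 29.7 CPM in SKOV3/DDP (−1.51 ± 0.21, adjusted p = 2.8e-04), and UBE2T, the ubiquitin-conjugating enzyme of the pathway, 39.1, 54.4 and 43.2 CPM in SKOV3 and 23.2, 12.9 and 21.4 CPM in SKOV3/DDP (−1.25 ± 0.25, adjusted p = 0.0023). All 3 genes were named by a rule that excludes overlap between the lines, and replicate 2 is the lowest SKOV3/DDP library in each. FANCA overlaps ZNF276. BRCA1 measured 9.13, 3.36 and 6.68 CPM in SKOV3 and 10.9, 10.6 and 8.72 CPM in SKOV3/DDP and was not called (0.62 ± 0.32, adjusted p = 0.12), whereas BRCA2, which acts in strand exchange, measured 7.06, 6.07 and 9.02 CPM in SKOV3 and 4.82, 4.03 and 4.02 CPM in SKOV3/DDP (−0.79 ± 0.25, adjusted p = 0.021). For BRCA2 the sign was the opposite without trend removal (2.71), and the call was lost without SKOV3/DDP replicate 2 (−0.69, adjusted p = 0.058). The direction of this list depended on trend removal: without it 21 members were higher and 7 lower, with a median of 1.62. The count of lower members was 10 with TMM for the level, 4 with library size for the level, 9 without SKOV3/DDP replicate 1 and 12 without replicate 2.

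In nucleotide excision repair 6 of 24 members were higher and 10 lower, with 6 lower without SKOV3/DDP replicate 3, and 13 higher and 8 lower without trend removal. XPC, which recognizes the distorted helix, measured 32.5, 32.6 and 32.9 CPM in SKOV3 and 77.1, 90.2 and 73.6 CPM in SKOV3/DDP (1.30 ± 0.15, adjusted p = 1.1e-04). CETN2, its partner, measured 4.25, 8.63 and 7.59 CPM in SKOV3 and 27.8, 26.1 and 30.7 CPM in SKOV3/DDP (2.05 ± 0.27, adjusted p = 1.9e-04). DDB2, which binds damaged chromatin, had a log2 fold change of 0.83, so that the recognition factors XPC, CETN2 and DDB2 were higher, in the PAE-treated lines too. XPC and DDB2 are also p53 targets and counted in both lists. LIG1, which seals the repaired strand and also joins Okazaki fragments, measured 68.2, 78.3 and 71.7 CPM in SKOV3 and 24.6, 11.8 and 25.6 CPM in SKOV3/DDP (−1.81 ± 0.28, adjusted p = 5.1e-04), and RPA3, a subunit of the single-strand binding protein RPA, 76.5, 169 and 111 CPM in SKOV3 and 12.4, 7.64 and 12.5 CPM in SKOV3/DDP (−3.45 ± 0.34, adjusted p = 3.8e-05), where UMAD1 overlaps RPA3. ERCC1, part of the nuclease that cuts beside the crosslink, measured 106, 98.2 and 99.7 CPM in SKOV3 and 156, 142 and 179 CPM in SKOV3/DDP (0.65 ± 0.15, adjusted p = 0.0042). Its sign was the opposite without trend removal (−0.72), and in the PAE-treated lines it was not called (0.44 ± 0.21, adjusted p = 0.094). In mismatch repair 2 of 8 members were higher and 2 lower, against 7 and 0 without trend removal. MSH6, which takes part in mismatch recognition, was lower in both comparisons (log2 fold changes −2.80 and −3.19). In end joining 4 of 8 members were higher and 1 lower, with LIG4, the ligase of that pathway, among the former (4.31 ± 0.31, adjusted p = 7.3e-06). Of 9 translesion synthesis genes 3 were higher and 1 lower, and POLI, a bypass polymerase, was the one higher in both comparisons (1.93 ± 0.36, adjusted p = 0.0015).

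Target genes of p53 were higher: 16 of 23 tested members were called higher and 2 lower, with a median log2 fold change of 0.88, and 14 of the 16 were also higher in the PAE-treated lines, where the median was 1.74. Without trend removal 13 were higher and 8 lower. CCNG1, a cyclin that p53 induces, had 0, 0 and 0 counts in SKOV3 and 2759, 2553 and 2474 in SKOV3/DDP, at least 2922-fold, and NUDCD2 overlaps it. ZMAT3, an RNA-binding growth suppressor, measured 2.61, 6.21 and 4.66 CPM in SKOV3 and 30.6, 20.3 and 26.8 CPM in SKOV3/DDP (2.57 ± 0.31, adjusted p = 1.3e-04), and RRM2B, a ribonucleotide reductase subunit for repair, 8.53, 11.9 and 6.62 CPM in SKOV3 and 50.6, 41.5 and 48.7 CPM in SKOV3/DDP (2.39 ± 0.23, adjusted p = 3.5e-05). MDM2, the ubiquitin ligase of p53, and BTG2, an antiproliferative factor, were higher with log2 fold changes of 1.12 and 1.56. ZMAT3 and RRM2B were named by a rule that excludes overlap between the lines. GADD45A measured 15.9, 18.7 and 19.8 CPM in SKOV3 and 139, 624 and 141 CPM in SKOV3/DDP, with a log2 fold change of 4.05, and 3.08 without SKOV3/DDP replicate 2, and the death receptor TNFRSF10B measured 98.6, 68.4 and 87.2 CPM in SKOV3 and 225, 825 and 232 CPM in SKOV3/DDP, with 2.33 and 1.58. Without that library 17 members were higher. CDKN1A, the p21 inhibitor and best known target, measured 1019, 1130.4 and 1056 CPM in SKOV3 and 1331, 2057 and 1234 CPM in SKOV3/DDP, just outside the threshold (0.53 ± 0.21, adjusted p = 0.052), and was higher with PAE (2.81 ± 0.35, adjusted p = 9.3e-05). It was called without SKOV3/DDP replicate 2 (0.43, adjusted p = 0.019), and its sign was the opposite without trend removal (−1.24).

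Of 7 inhibitors of cyclin-dependent kinases 4 were lower and 1 higher. CDKN2A (chr9:21967752-21995324, GRCh38), the locus of p16 and ARF, had 18189, 19546 and 16016 counts in SKOV3 and 0, 3 and 0 in SKOV3/DDP, for a ratio of 15915 (95% counting interval 5446 to 77176) in favour of SKOV3. CDKN2B, CDKN2C and CDKN2D were lower too, with log2 fold changes of −1.76, −2.57 and −1.46, and −1.65, −3.64 and −0.71 with PAE. All 4 INK4 genes were thus lower in both comparisons. Of 9 survival genes 3 were higher and 5 lower, against 5 and 2 without trend removal. Of 23 death receptor, BH3 and caspase genes 7 were higher and 4 lower, both smaller shares than those of all genes. Without trend removal 9 of these were higher and 11 lower. MCL1, a survival protein, measured 93.8, 94.8 and 91.7 CPM in SKOV3 and 228, 381 and 231 CPM in SKOV3/DDP (1.58 ± 0.22, adjusted p = 2.6e-04) and BIRC5 (survivin), which also acts in mitosis, 288, 359 and 314 CPM in SKOV3 and 61.7, 26.8 and 52.2 CPM in SKOV3/DDP (−2.77 ± 0.30, adjusted p = 6.2e-05). BCL2 was at 1.26 ± 1.02 CPM in SKOV3 and 0.314 ± 0.126 in SKOV3/DDP (SD, n = 3), and was lower (−2.01 ± 0.62, adjusted p = 0.019), a call lost without replicate 2 (−1.61, adjusted p = 0.056). In turn BCL2L1 (BCL-XL) measured 218, 208 and 207 CPM in SKOV3 and 284, 317 and 287 CPM in SKOV3/DDP (0.49 ± 0.13, adjusted p = 0.0096), with the opposite sign with PAE (−1.21 ± 0.16, adjusted p = 1.6e-04). Survival genes thus differed in both directions.

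Replication genes were lower as a group in SKOV3/DDP, with 19 lower and 0 higher of 26, a median log2 fold change of −1.47, and 18 of the 19 also lower in the PAE-treated lines (median −2.12). E2F1, the factor that drives entry into S phase, measured 245, 234 and 234 CPM in SKOV3 and 26, 13.4 and 24 CPM in SKOV3/DDP (−3.49 ± 0.25, adjusted p = 8.0e-06). MCM2 measured 227, 205 and 215 CPM in SKOV3 and 30.6, 11 and 17.1 CPM in SKOV3/DDP (−3.46 ± 0.34, adjusted p = 4.1e-05) and MCM5, another subunit of the replicative helicase, 303, 275 and 275 CPM in SKOV3 and 43.3, 20.3 and 47.1 CPM in SKOV3/DDP (−2.94 ± 0.30, adjusted p = 4.7e-05). Replicate 2 was the lowest SKOV3/DDP library in each of these 3 genes, and MCM2 kept a log2 fold change of −3.01 without it. Without trend removal 10 members were higher and 12 lower, with a median of 0.18, and with library size for the level 11 were lower. Mitosis genes were less one-sided, with 3 higher and 6 lower of 24 and a median of −0.11, although 24 were lower with PAE (median −1.77). In the untreated lines both shares were smaller than those of all genes. Without SKOV3/DDP replicate 2 the split was 6 higher and 4 lower, and without trend removal 15 and 4. PLK1, the kinase of mitotic entry, was lower (−2.28 ± 0.35, adjusted p = 4.5e-04), as were CENPA (−0.89 ± 0.23, adjusted p = 0.0086) and AURKB (−0.76 ± 0.24, adjusted p = 0.021), and the last 2 changed sign when library size set the level. The call of AURKB was lost without SKOV3/DDP replicate 2 (−0.41, adjusted p = 0.055).

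Genes of intestinal epithelium were read in part in SKOV3/DDP, where 8 of 17 markers reached a mean of 1 CPM of library totals, against 1 in SKOV3. Of 17 listed markers 9 were tested and 8 were higher, 6 of them with PAE too, and their summed level was 4.16 to 6.07 CPM of library totals in SKOV3 and 692 to 873 in SKOV3/DDP. CDX2 (chr13:27960918-27969337, GRCh38), the homeobox factor that specifies intestinal cells, had 0, 0 and 0 counts in SKOV3 and 3499, 1697 and 2962 in SKOV3/DDP, at least 3061-fold. CDH17, a cadherin of the gut, had 5685, 6265 and 4817 counts against 0, and HNF4A, a nuclear receptor of gut and liver, 0, 3 and 0 counts in SKOV3 and 533, 424 and 438 in SKOV3/DDP, for a ratio of 523 (95% counting interval 179 to 2542). VIL1 (villin), of the brush border, reached 6.58 ± 1.11 CPM (SD, n = 3) with 0 counts in SKOV3, and USP37 overlaps it. TFF3, FABP1 and PHGR1, also on the list, had 0 counts in both lines. MUC2, KRT20, OLFM4 and CEACAM5 had at most 7 counts in any library, and GPA33 and GUCY2C stayed under a mean of 1 CPM in both lines. The list was thus not read as a whole. No cell type is assigned from these values.

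Epithelial junction genes were higher as well, 11 of 18 with 2 lower, and all 11 were higher with PAE. KRT19 measured 3.13, 2 and 2.22 CPM in SKOV3 and 3122, 2472 and 3272 CPM in SKOV3/DDP (10.24 ± 0.29, adjusted p = 4.1e-07) and EPCAM, an adhesion molecule of epithelia, 1.4, 0.448 and 1.95 CPM in SKOV3 and 190.1, 206 and 195 CPM in SKOV3/DDP (7.27 ± 0.39, adjusted p = 2.1e-06). CDH1, E-cadherin, measured 11.6, 3.94 and 6.3 CPM in SKOV3 and 277, 397 and 235 CPM in SKOV3/DDP (5.37 ± 0.42, adjusted p = 1.1e-05), and its log2 fold change was 1.44 with PAE. KRT7, a keratin of Mullerian epithelium, ran the other way with 1628, 1511 and 1501 CPM in SKOV3 and 0.853, 3.83 and 1.18 CPM in SKOV3/DDP (−9.64 ± 0.53, adjusted p = 2.2e-06). Keratin usage thus differed between the lines, KRT7 in SKOV3 and KRT19 in SKOV3/DDP. CLDN3, a tight junction protein, measured 39.3, 41.4 and 33.4 CPM in SKOV3/DDP and less than 0.1 in each SKOV3 library, and ST14, a membrane protease, 0.498, 0.451 and 0.983 CPM in SKOV3 and 287, 205 and 225 CPM in SKOV3/DDP. Mesenchymal genes split into 7 higher and 8 lower of 19, and 7 and 11 of 20 without SKOV3/DDP replicate 2. Their median log2 fold change was −0.67, and −1.69 without that library. With PAE the list leaned to lower, with 4 higher and 12 lower and a median of −3.70. All 8 lower members were lower there too, and 4 of the 7 higher ones were higher. LOX, which crosslinks collagen, measured 143, 111 and 128 CPM in SKOV3 and 0.0774, 0.166 and 0.197 CPM in SKOV3/DDP (−9.74 ± 0.34, adjusted p = 5.1e-07, overlapped by SRFBP1), COL6A2 177, 206 and 212 CPM in SKOV3 and 0.738, 1.03 and 0.0975 CPM in SKOV3/DDP (−8.31 ± 0.43, adjusted p = 1.9e-06) and TWIST1, a factor that represses E-cadherin, had 238, 267 and 260 counts in SKOV3 and 0, 0 and 0 in SKOV3/DDP. SPARC, a matrix protein, was higher in SKOV3/DDP, with 0, 0 and 1 and 411, 310 and 467 counts, a ratio of 1337 (95% counting interval 239.6 to 52870.1). VIM, the intermediate filament of mesenchymal cells, was higher in SKOV3/DDP (5.20, and 1.59 with PAE). A shift of all mesenchymal genes one way was not seen.

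WNT feedback targets, which beta-catenin induces, were higher in 10 of 12 members and lower in 2, and 8 of the 10 were higher with PAE too. AXIN2, the scaffold that limits the pathway, measured 0.21, 0.527 and 0.106 CPM in SKOV3 and 382, 120.5 and 351 CPM in SKOV3/DDP (9.98 ± 0.67, adjusted p = 5.6e-06). RNF43, a ligase that removes WNT receptors, measured 1.9, 2.19 and 2.41 CPM in SKOV3 and 252, 130.2 and 213 CPM in SKOV3/DDP (6.51 ± 0.31, adjusted p = 1.5e-06), and APCDD1 measured 83.7, 33.8 and 94.5 CPM in SKOV3/DDP. In AXIN2 and RNF43 SKOV3/DDP replicate 2 was the lowest of its group, and the rule that named them excludes overlap between the lines. DKK1, a secreted inhibitor, was the reverse, with 229, 413 and 393 counts in SKOV3 and 0, 0 and 0 in SKOV3/DDP. Of 12 ERBB receptors and ligands 6 were higher and 4 lower. EGF had 0, 0 and 0 counts in SKOV3 and 488, 518 and 379 in SKOV3/DDP, and EREG measured 26.4, 21.8 and 25.6 CPM in SKOV3 and 0.0335, 0.519 and 0.0929 CPM in SKOV3/DDP (−6.82 ± 0.79, adjusted p = 9.7e-05). TGFA (4.21 ± 0.31, adjusted p = 9.0e-06) and the receptor ERBB3 (2.76 ± 0.27, adjusted p = 4.0e-05) were higher in SKOV3/DDP.

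De novo purine synthesis, which the study follows, was measured through 9 enzymes, of which 2 were higher and 5 lower in SKOV3/DDP. By quantitative PCR the study itself reports higher mRNA of enzymes of this pathway in SKOV3/DDP than in SKOV3. That is the other direction from the 5 lower here. PPAT, which catalyses the committed step, measured 12.3, 7.66 and 6.23 CPM in SKOV3 and 12.4, 18.8 and 11.1 CPM in SKOV3/DDP and was not called (0.68 ± 0.31, adjusted p = 0.082), nor was GART (−0.29 ± 0.23, adjusted p = 0.3). PFAS measured 37.4, 43.5 and 47.8 CPM in SKOV3 and 21.3, 17.8 and 21.9 CPM in SKOV3/DDP (−1.08 ± 0.17, adjusted p = 6.5e-04), where CTC1 overlaps. PAICS measured 28.8, 32 and 37 CPM in SKOV3 and 57.6, 58 and 60.5 CPM in SKOV3/DDP (0.85 ± 0.16, adjusted p = 0.0014) and ATIC, the last enzyme before IMP, 65.6, 42.1 and 49.4 CPM in SKOV3 and 125, 113 and 122 CPM in SKOV3/DDP (1.19 ± 0.19, adjusted p = 5.8e-04). ADSL measured 59.9, 119 and 93.5 CPM in SKOV3 and 33, 30 and 27.2 CPM in SKOV3/DDP (−1.59 ± 0.25, adjusted p = 5.7e-04), where SGSM3 overlaps. On the branches from IMP, IMPDH2 measured 311, 391 and 352 CPM in SKOV3 and 246, 257 and 218 CPM in SKOV3/DDP (−0.55 ± 0.15, adjusted p = 0.01), GMPS 47.5, 39.3 and 44.2 CPM in SKOV3 and 25.1, 19.6 and 24.3 CPM in SKOV3/DDP (−0.93 ± 0.17, adjusted p = 0.0015) and ADSS2 24.9, 21.2 and 23.8 CPM in SKOV3 and 11.4, 15.3 and 11.9 CPM in SKOV3/DDP (−0.86 ± 0.20, adjusted p = 0.0044). Direct steps to IMP were thus mixed, and the 3 branch enzymes lower. The 5 lower members, PFAS, ADSL, IMPDH2, GMPS and ADSS2, were also lower with PAE, while PAICS was called lower there (−1.43) and ATIC was not called (0.17). Without trend removal GMPS (1.92), ADSS2 (1.78) and GART (1.42) had the opposite sign, and 6 members were higher and 2 lower with a median of 1.63, the reverse of the split above. With library size for the level 1 was lower.

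Of the study's 11 candidate genes, which were chosen in part on these samples and are no independent evidence of their direction, 5 were higher and 4 lower. NEK6, a mitotic kinase, measured 12.8, 15.6 and 12.5 CPM in SKOV3 and 139.9, 109 and 132 CPM in SKOV3/DDP (3.22 ± 0.19, adjusted p = 3.0e-06), and 3.11 with PAE. FOXO1, a transcription factor, measured 2.53, 1.04 and 1.49 CPM in SKOV3 and 34.1, 22.9 and 32.3 CPM in SKOV3/DDP (4.08 ± 0.32, adjusted p = 1.2e-05), PDE2A, which hydrolyses cyclic nucleotides, 2.91, 2.44 and 2.59 CPM in SKOV3 and 295, 436 and 319.9 CPM in SKOV3/DDP (7.04 ± 0.24, adjusted p = 5.1e-07) and TRPM2, a calcium channel, 0.0391, 0.229 and 0.249 CPM in SKOV3 and 27.4, 27.4 and 29.3 CPM in SKOV3/DDP (7.32 ± 0.45, adjusted p = 3.8e-06). ACSM3, an acyl-CoA synthetase, had 2, 0 and 0 and 102, 106 and 51 counts, a ratio of 146 (95% counting interval 40 to 1210.2). TRPM2 and ACSM3 overlap TRPM2-AS and ERI2. All 5 were higher with PAE as well. IGFBP4, which binds insulin-like growth factors, measured 2361, 1868 and 2132 CPM in SKOV3 and 911, 772 and 829 CPM in SKOV3/DDP (−1.34 ± 0.16, adjusted p = 1.3e-04) and RIPK4, a kinase of epithelia, 88.7, 104 and 98.5 CPM in SKOV3 and 16.7, 43.4 and 16.9 CPM in SKOV3/DDP (−1.92 ± 0.36, adjusted p = 0.0015). RPS6KA1 was lower (−1.46 ± 0.25, adjusted p = 8.9e-04) but not called with PAE (−0.88 ± 0.82, adjusted p = 0.38), and PKD1, which overlaps TSC2, was lower here (−2.11 ± 0.28, adjusted p = 2.2e-04) and higher with PAE (1.30 ± 0.21, adjusted p = 4.5e-04). CDK5 (−0.13 ± 0.21, adjusted p = 0.62) and SLC22A3 (0.97 ± 0.59, adjusted p = 0.18) did not pass the test.

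Glycolysis genes were lower in 13 of 24 members and higher in 6, with 10 of the 13 lower with PAE. PGK1 measured 2039.9, 4700.2 and 3207 CPM in SKOV3 and 137, 113 and 104 CPM in SKOV3/DDP (−4.81 ± 0.33, adjusted p = 6.1e-06) and TPI1 2344, 2783 and 2327 CPM in SKOV3 and 500.1, 346 and 428 CPM in SKOV3/DDP (−2.55 ± 0.19, adjusted p = 9.5e-06). The glucose transporters were higher: SLC2A1 measured 277, 299.7 and 314 CPM in SKOV3 and 3889, 3741 and 3564 CPM in SKOV3/DDP (3.65 ± 0.15, adjusted p = 9.2e-07), and SLC2A3 had 0, 0 and 0 counts in SKOV3 and 3489, 6001 and 2426 in SKOV3/DDP, at least 4472-fold. Of the enzymes after them ALDOC was higher in both comparisons and 9, from HK1 to PKM, were lower in both. Cholesterol synthesis was split into 6 higher and 7 lower of 22, with TM7SF2, a sterol reductase, higher (5.19 ± 0.18, adjusted p = 5.1e-07) and EBP, a sterol isomerase, lower (−1.59 ± 0.16, adjusted p = 3.8e-05).

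Genes of stress responses depended on 1 library. Of 19 tested genes of the integrated stress response, the pathway in which ATF4 raises amino acid supply, 3 were higher and 6 lower with all libraries, but 3 higher and 15 lower of 20 without SKOV3/DDP replicate 2. The list's median log2 fold change was −0.36 with and −1.48 without it. The amino acid transporter SLC7A5 measured 2891, 2512 and 2987 CPM in SKOV3 and 365, 1795 and 354 CPM in SKOV3/DDP, with a log2 fold change of −1.74, and −2.80 without replicate 2. NUPR1, a stress-induced chromatin protein, measured 126, 244 and 189 CPM in SKOV3 and 0.142, 6.26 and 0.316 in SKOV3/DDP, and ATF3 38.1, 318 and 41 CPM in SKOV3/DDP. Replicate 2 is the highest SKOV3/DDP library in these 3 genes, as in GCLC, SRXN1, GADD45A and TNFRSF10B. STC2, a secreted glycoprotein of the same list, had 2444, 3321 and 2976 counts in SKOV3 and 0, 0 and 1 in SKOV3/DDP, for a ratio of 7764 (95% counting interval 1393 to 306708). In the PAE-treated lines the list's median was 0.97, so that its direction did not carry over.

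Interferon-stimulated genes divided in the untreated lines, with 13 higher and 9 lower of 29 and a median log2 fold change of 0.15. With PAE 3 were higher and 20 lower, with a median of −1.53. OASL, an antiviral protein, measured 700.4, 849 and 679 CPM in SKOV3 and 30.2, 29.5 and 17.4 CPM in SKOV3/DDP (−4.85 ± 0.26, adjusted p = 2.1e-06), OAS2 47.7, 22.9 and 27.9 CPM in SKOV3 and 1.57, 0.608 and 0.672 CPM in SKOV3/DDP (−5.09 ± 0.48, adjusted p = 2.9e-05) and HERC5, the ligase of ISG15, 22.4, 8.95 and 18.5 CPM in SKOV3 and 0.019, 0.0793 and 0 CPM in SKOV3/DDP (−8.79 ± 0.74, adjusted p = 1.7e-05), while IFI27, also induced by interferon, measured 0.124, 0.0644 and 0.0365 CPM in SKOV3 and 29.8, 83.4 and 17.9 CPM in SKOV3/DDP (9.10 ± 0.82, adjusted p = 2.4e-05). Of the called members 8 had the opposite sign with PAE, among them IFIT1 and IFIH1. In antigen presentation 3 of 12 members were higher and 6 lower. B2M, the light chain of MHC class I, measured 138, 768 and 352 CPM in SKOV3 and 18.7, 19.1 and 16.9 CPM in SKOV3/DDP (−4.52 ± 0.57, adjusted p = 1.5e-04), where the SKOV3 libraries span more than 5-fold, and ERAP2, a trimming peptidase, 1.06, 0.233 and 0.513 CPM in SKOV3 and 49, 26.3 and 41.4 CPM in SKOV3/DDP (5.90 ± 0.43, adjusted p = 7.8e-06), which ERAP1 overlaps. Proteasome subunits were split into 9 higher and 10 lower of 31, and the CCT chaperonin, which folds actin and tubulin, into 4 and 2 of 8.

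Differences also followed chromosomes (the plot of medians by chromosome). Genes on chromosome 13 had a median log2 fold change of 1.35 over 254 genes, of which 165 (65.0%) were higher and 30 (11.8%) lower, against 35.6% and 32.1% of all genes. With PAE their median was 1.21. Of the nuclear chromosomes, chromosome 4 followed with 0.68, and 0.60 with PAE, over 493 genes. CDX2 and ATP7B lie on chromosome 13. At the other end were chromosomes 21 (−0.48), 20 (−0.39) and 16 (−0.38), with −0.47, −0.19 and −0.55 with PAE. Without trend removal chromosome 13 had 3.34 and chromosome 19, which is rich in GC, −1.91, against 0.02 after it was removed. All 13 tested mitochondrial genes were higher, with a median of 1.68, and 0.72 with PAE.

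**Figure D5:**
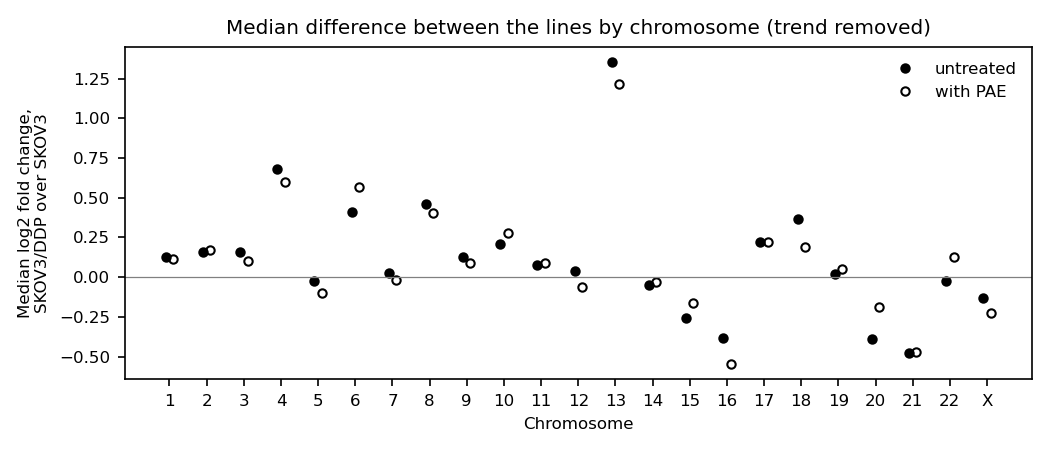
Median log2 fold change of SKOV3/DDP over SKOV3 after trend removal (y axis) for the tested genes of each chromosome (x axis), with filled points for the untreated and open points for the PAE-treated lines. Of the chromosomes drawn, which leave out the mitochondrial genome, chromosome 13 stands highest in both, at 1.35 and 1.21.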

How the data were processed

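RNA of 12 samples was sequenced from poly-A libraries. The deposited count tables hold raw read counts per gene made by the authors, with names for 46350 genes. The submitters' processing notes list HISAT2 2.0.5, StringTie 1.3.3b, DESeq2 and edgeR, while the counting program, its strand setting and the genome annotation are not given in the sources used here, so reads of overlapping genes cannot be told apart. Loci without a gene name (0.126% to 0.678% of counts in the 6 untreated libraries) were left out. Library totals of 15031362 to 18263479 counts set the precision. Replicates of a line differed beyond sampling noise, and none was merged.

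Counts of genes passing edgeR's expression filter were tested with edgeR 4.0.16 (quasi-likelihood, R 4.3.3), with splines of 5 df on GC content and on gene length per library as offset, Benjamini-Hochberg adjusted p-values and a threshold of 0.05. GC content and length were at hand for 94% of genes past the filter, which left 913 untested. The PAE-treated lines were fitted alone in the same way. DESeq2 1.42.0, limma 3.58.1 and other trends, filters, levels and libraries were alternatives. Scripts were tested on simulated data.

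Gene lists, members and tests were chosen with earlier results of these data known. Named were the 10 largest differences per direction, up to 4 members a list, the highest genes with 0 counts in one line, and genes with known platinum roles. Those differences and list members had to be called with and without trend removal and with PAE, without overlap between the lines. For genes named only in this way, a call with PAE and the lack of overlap were thus fixed by the rule. GSTT1, MSH6, DDB2, MDM2, BTG2, VIM, ABCC3, ABCC5, STARD3 and ALDOC, and other list members named without an SE, were chosen after their values were seen. Some genes of these lists are not reported here by name. Replicate numbers did not pair the samples: same-number correlations were 0.08, −0.016 and −0.025.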

Additional observations from a re-analysis of the deposited data

Results flagged for a closer look

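Among the genes chosen by the naming rule and given here, 3 were called in opposite directions without and with PAE, with no overlap between the lines in either, and differed by the interaction term of an edgeR fit over 12 libraries with the same trend removal. For BCL2L1 the difference of the log2 fold changes (untreated minus PAE-treated lines) was 1.65 (adjusted p = 5.5e-05), from 0.49 without and −1.21 with PAE, and for PAICS 2.31 (adjusted p = 7.9e-06), from 0.85 and −1.43. For PKD1 it was −3.25 (adjusted p = 2.6e-05), from −2.11 and 1.30. Opposite calls in these same libraries had picked the 3 genes, so that the p-values of the interaction term are no separate evidence. The untreated libraries carry the GC trend and the PAE-treated ones do not, and the part of this difference in these values was not tested.

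Loci without a gene name, which no comparison used, took a mean of 0.474% of counts in untreated SKOV3/DDP, against 0.126% to 0.138% in the untreated SKOV3 libraries.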

How the results depend on the processing

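The 9754 calls stayed within 1.5 times under every alternative run except the criteria of the methods, which gave 4229. With library size for the level, 8563 genes were higher and 2313 lower, with 11 replication, 4 homologous recombination, 1 purine, 6 glycolysis and 3 excision repair members lower and 16 glutathione members higher. With TMM for the level, 10 homologous recombination and 6 excision repair members were lower. Without trend removal, 12 replication, 7 homologous recombination and 2 purine members were lower. With at least 10 counts in every library, which drops genes read in 1 line, 3 efflux, 1 intestinal, 6 WNT and 5 glutathione members were higher. Leaving out 1 library gave 9 to 17 lower members for homologous recombination and 6 to 11 for excision repair. With the replicate number as a block, 4868 genes were higher and 4445 lower.

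Signs of some named genes turned. With library size for the level the log2 fold changes were 0.43 for IMPDH2, 0.10 for CENPA, 0.22 for AURKB, 0.20 for ATP7A, 0.20 for SLC31A1, 0.19 for BRCA2, 0.67 for GCLM, 0.81 for MT2A, 0.72 for ERBB2, 0.66 for GART, 0.063 for GMPS, 0.11 for ADSS2 and 0.84 for CDK5. Without trend removal they were 2.31 for ATP7A, 1.28 for SLC31A1, −0.72 for ERCC1, 2.71 for BRCA2, 2.66 for GCLM, −3.48 for GSTP1, 0.051 for BCL2, −0.98 for BCL2L1, −1.24 for CDKN1A, 1.42 for GART, 1.92 for GMPS and 1.78 for ADSS2. With GC bins GSTP1 had −1.18 and ERBB2 0.23, with GC content only −1.30 and 0.22, and with TMM for the level MT2A had 0.060 and CDK5 0.087. Leaving out 1 library gave −0.13 to 1.09 for ABCC2, −0.42 to 0.10 for CDK5, −0.44 to 0.016 for ERBB2, −1.31 to 0.16 for GCLM, −0.22 to 0.40 for GSTP1 and −0.95 to 0.31 for MT2A. Apart from the level and trend settings, whose construction moves them, the causes were not tested.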
